A study of Mus musculus with 12 samples.

Results

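The Polycomb and H3K9 methylation machinery was read in mouse thymus and lymphoma through 10 genes, Ezh1, Ezh2, Eed, Suz12, Setdb1, Trim28, Ehmt1, Ehmt2, Suv39h1 and Suv39h2, which were chosen by their symbols from the 50600 gene IDs of the count files. RNA came from 12 mice, 3 in each of 4 groups, and one library was made per mouse. Ctrl were thymocytes of control mice aged 20 to 25 wk, labelled wt and called wild-type in the study. For its survival curve the study gives the control mice as Dnmt1 loxP/loxP. KO were thymocytes of mice in which Cd4-Cre deleted the floxed Dnmt1 gene, aged 20 to 21 wk. ALK were T cell lymphoma cells of mice with a human NPM-ALK transgene driven by Cd4 regulatory sequences, aged 22 to 31 wk. ALKKO were thymocytes of mice with the same transgene and the same Dnmt1 deletion, aged 19 to 25 wk. These ages are those of the labels, while the study's methods give a single younger age for its bulk samples. All mice were of a mixed C57Bl/6 and SV/129 background and all were male except the second KO mouse. Since Cre and transgene both depend on Cd4 sequences, cells that never used them were not modified, and since ALK was taken from tumors and the other groups from thymi, the tissue state and the genotype cannot be told apart in any comparison with ALK. In these bulk samples, fewer cells of a type and less RNA per cell cannot be told apart.

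Both systems silence genes by methylating histone H3. Polycomb repressive complex 2 (PRC2) places the trimethyl mark on lysine 27 through either of the catalytic subunits EZH2 and EZH1, of which EZH2 is typical of dividing cells and EZH1 of resting ones, and needs the core subunits EED and SUZ12. Methylation of lysine 9 is the work of SETDB1, which the scaffold TRIM28 (also called KAP1) recruits to zinc-finger proteins at endogenous retroviruses, of the euchromatic pair EHMT1 (GLP) and EHMT2 (G9a), and of the heterochromatic pair SUV39H1 and SUV39H2. DNMT1 copies DNA methylation after replication, and DNA methylation and both histone marks meet at many silenced regions.

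All 10 genes passed the filter on low counts, and their values are given as CPM, the counts scaled to a common number of reads per library, with TMM factors. A gene passed the test when its p from the quasi-likelihood test of edgeR, adjusted by Benjamini-Hochberg over 16052 tested genes, was under 0.05. Reads were counted over whole gene bodies, of which exons make up 6.26% in Ehmt1 to 38.8% in Suv39h1, and the share of intron reads in each gene is not known, so levels per kilobase of exon compare different genes only roughly. On that scale Trim28 was the most abundant in Ctrl at 133 ± 22.2 CPM per kb (SD, n = 3). Suz12, Ehmt2 and Ezh2 followed at 48.2 ± 3.81, 46.0 ± 3.45 and 45.5 ± 6.48 CPM per kb, neighbours within 1 SD of each other. Suv39h1 and Eed (25.0 ± 3.98 and 22.8 ± 2.51 CPM per kb) also lay within 1 SD of each other, and Setdb1 (19.2 ± 2.12), Ehmt1 (15.2 ± 0.544) and Ezh1 (10.8 ± 0.232) came below them. Suv39h2 was the least abundant at 2.48 ± 0.454 CPM per kb. The first and the last 3 ranks, Trim28 at the top and Ehmt1, Ezh1 and Suv39h2 at the bottom, were the same in all 4 groups and with the length of the longest coding transcript in place of all exons. On that second scale Ezh2 took the second place in Ctrl, at 109 CPM per kb, in front of Ehmt2 with 62.7 and Suz12 with 54.5, so the order of these 3 genes depends on which transcripts are counted.

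In the libraries as a whole, 12473857 to 18864327 reads were counted on genes, which puts a floor of 3 counts at 0.159 to 0.241 CPM. Dnmt1 ranged over 400.0 to 487 CPM across Ctrl, 206 to 244 across KO, 379 to 788 across the tumors and 205 to 244 across ALKKO. Reads assigned to mouse Alk came to at least 34.9 CPM in every ALK and ALKKO library and at most 0.431 CPM in the others, so both genes separated the libraries as labelled. The female KO2 stood apart from the other thymus libraries. Its 7 B-cell markers summed to 2079 CPM against 58.9 to 110 CPM in the other 8 thymus libraries, its 9 myeloid markers to 2280 CPM against 428 to 633 CPM, and its 11 T-cell markers, 1 of which was at 0 in all libraries, to 4044 CPM against 8748 to 11859 CPM. The 6 erythroid markers varied within the groups, with sums of 388 to 584 CPM in Ctrl, 254, 2427 and 1671 CPM in KO1, KO2 and KO3, 27.4 to 750.3 CPM in the tumors, and 150.2, 1907 and 1845 CPM in ALKKO1, ALKKO2 and ALKKO3. In the tumors the B-cell markers summed to 8.64 to 25.9 CPM, where Ctrl had 62.4 to 110, and the myeloid markers to 204 to 797 CPM, where Ctrl had 428 to 520.5. The T-cell markers summed to 3712 to 5273 CPM in ALK, and the 21 proliferation genes to 3687 to 7704 CPM, where Ctrl had 4103 to 5269. The part of these markers in the results was not tested. Tests of the 10 genes and counts of list genes in comparisons that use KO are also given without KO2.

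The first comparison, of ALK tumors with Ctrl thymocytes, asked which of these genes differ in NPM-ALK lymphoma. Of the 10 genes, 1 rose (Trim28), 1 fell (Ezh1) and 8 did not pass the test, where 29.5% of all tested genes passed, 14.8% upwards and 14.7% downwards. The groups did not overlap in these 2 genes, where 46.4% of all tested genes did not overlap. Neither change exceeded an absolute log2 fold change of 1, which 20.4% of all tested genes did together with the adjusted p. The median log2 fold change of the 10 genes was 0.08, and that of all tested genes was 0.05. In the same comparison 5 of 10 tested T-cell markers fell, among them Cd4 with 27.5 to 116 CPM across the tumors against 1287 to 1409 across Ctrl, and of 12 thymic stroma markers 5 fell and 2 rose, with sums of 1207 to 1576 CPM against 3197 to 4032. The part of this difference in cell content in the levels of the 10 genes was not tested.

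Ezh1 (ENSMUSG00000006920.14, chr11:101191115-101226463 of GRCm38, minus strand), the PRC2 methyltransferase of resting cells, was the gene that fell. It measured 79.6, 82.3 and 79.0 CPM across Ctrl, 85.7, 90.3 and 78.7 across KO, 51.3, 46.5 and 64.8 across the tumors and 78.9, 68.4 and 71.3 across ALKKO. All 3 tumors were below all 9 thymus libraries, and the third tumor was the nearest to them. In ALK against Ctrl the fall was 0.57 on the log2 scale (SE 0.134, adjusted p = 0.0111 by edgeR's quasi-likelihood test), a 95% confidence interval of -0.86 to -0.27, and in ALK against ALKKO the log2 fold change was -0.43 (SE 0.134, adjusted p = 0.0372 by the same test). The first of these passed the test in 20 of 21 alternatives, all but the test against an absolute log2 fold change of 1. The second was less firm. It lost the test in 12 of 21 alternatives, among them without any 1 of the Ctrl libraries (adjusted p = 0.0515, 0.0501 and 0.0605 by edgeR), without the first or second ALK library (0.0860 and 0.0968) and without any 1 of the ALKKO libraries (0.107, 0.0514 and 0.0765). The log2 fold change itself stayed between -0.58 and -0.34 over those 21.

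**Figure D1:**
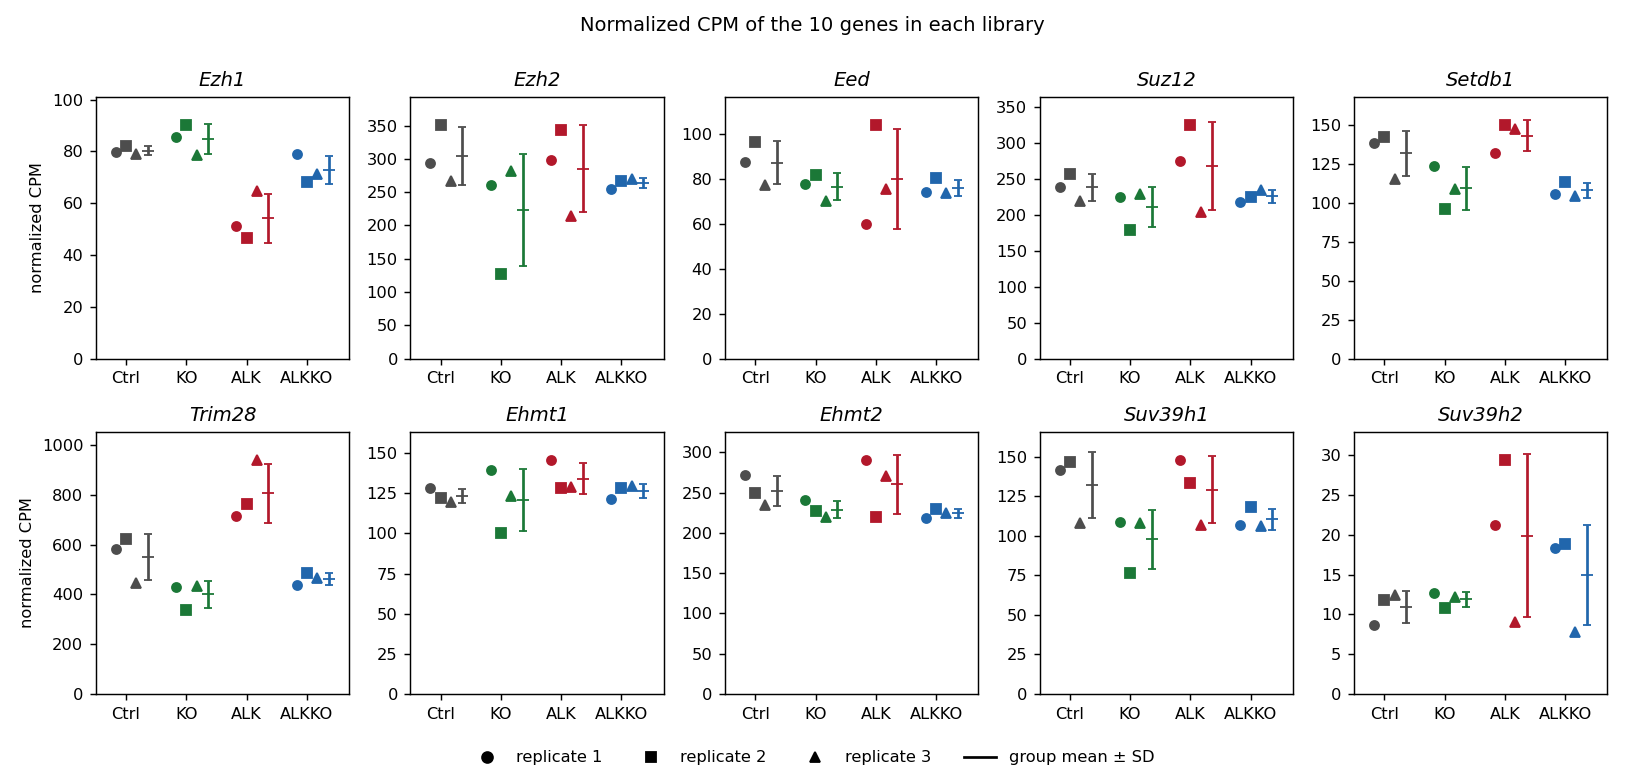
Normalized CPM (y axis, from 0 in each panel) of the 10 genes in each of the 12 libraries, by group (x axis); marker shapes give the replicate number and bars the group mean ± SD (n = 3). Ezh1 lay at 46.5 to 64.8 CPM in the ALK tumors and at 68.4 to 90.3 CPM in all other libraries, while Trim28 lay at 715 to 939 CPM in the tumors and at 337 to 623 CPM elsewhere.

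Trim28 (ENSMUSG00000005566.14, chr7:12999114-13031035, plus strand), the corepressor that brings SETDB1 to zinc-finger targets, went the other way. It measured 583, 623 and 447 CPM across Ctrl, 429, 337 and 434 across KO, 715, 763 and 939 across the tumors and 435.8, 484 and 467 across ALKKO. Again all 3 tumors stood apart from all 9 thymus libraries, and the third Ctrl library was the lowest of its group. Trim28 rose by 0.80 on the log2 scale in ALK against ALKKO (SE 0.172, adjusted p = 0.00769 by edgeR's quasi-likelihood test), a 1.74-fold difference that passed the test in 20 of 21 alternatives, all but the test against an absolute log2 fold change of 1. Against Ctrl it rose by 0.55 (SE 0.172, adjusted p = 0.0358 by the same test), and over 21 alternatives the adjusted p was 0.00967 to 1. This call was held by only 5 of the 21, among which the term for sex and leaving out KO2 gave nearly the same fit. It was lost without any 1 of the Ctrl libraries (adjusted p = 0.0873, 0.0532 and 0.114), the first or the third KO library (0.0508 and 0.0526), the second or the third ALK library (0.0626 and 0.0972) or any 1 of the ALKKO libraries (0.0578, 0.0561 and 0.0636, all by edgeR). The direction was kept in all 21, with log2 fold changes of 0.41 to 0.63.

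The region before the start of each of these 2 genes is shown because DNMT1 acts on CpG sites and because Ezh1 and Trim28 moved in opposite directions in the tumors. Both sequences are the 250 bases before the RefSeq start on GRCm38.p6, 5′ to 3′ on the strand of the gene, with every CpG in capitals. The Trim28 window lies within the gene body given above, which begins further upstream than the RefSeq start. DNA methylation of these regions was not analysed here.
Ezh1 (chr11:101226464-101226713, minus strand): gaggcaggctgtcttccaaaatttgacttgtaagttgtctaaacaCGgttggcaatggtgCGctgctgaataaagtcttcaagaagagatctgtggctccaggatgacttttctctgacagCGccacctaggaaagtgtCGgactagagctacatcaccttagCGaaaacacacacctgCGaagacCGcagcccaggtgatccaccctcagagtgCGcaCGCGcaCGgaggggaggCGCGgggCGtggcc
Trim28 (chr7:13023902-13024151, plus strand): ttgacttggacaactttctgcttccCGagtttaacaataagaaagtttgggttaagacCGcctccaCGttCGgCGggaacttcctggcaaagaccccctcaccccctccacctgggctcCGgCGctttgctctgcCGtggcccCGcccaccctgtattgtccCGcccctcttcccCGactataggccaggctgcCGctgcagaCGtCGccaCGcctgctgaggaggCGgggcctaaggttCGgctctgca

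The Ezh1 window held 14 CpGs and 55.2% G and C, and the Trim28 window 17 CpGs and 62.0%, where the median of 32851 windows of the same length in the RefSeq table was 6 CpGs and 52.4%. All 10 genes had more CpGs than that median, from 11 in the first Suv39h1 window to 37 in Suz12. Of 3 motifs searched on both strands, CGCANGCG, the core of the NRF1 site, was found 35 bases before the start of Ezh1 as CGCACGCG and was also found in windows of Ezh2, Ehmt1, Suv39h1 and Suv39h2, where 6.76% of all windows held it. CACGTG, the E-box bound by MYC and USF factors, was found in Ehmt2 alone (6.02% of all windows). The E2F strings TTTGGCGC, TTTCCCGC, TTTGCCGC and TTTCGCGC were found in Suz12 and in the second window of Suv39h1 (1.86% of all windows), and none of the 3 motifs was found in Trim28, Setdb1 or Eed. Such a match describes the letters of the window and not the binding of a factor. All these strings contain CpG, and the shares over all windows were not matched for the number of CpGs. Ehmt2 and Suv39h1 had 2 windows each, so genes and single windows are not counted alike.

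Setdb1 (ENSMUSG00000015697.14, chr3:95323525-95357202, minus strand), the methyltransferase partner of Trim28, measured 138, 142 and 115 CPM across Ctrl, 123, 95.8 and 109 across KO, 132, 150.2 and 147 across the tumors and 106, 114 and 104 across ALKKO. The tumors overlapped with Ctrl, where the log2 fold change was 0.12 (95% confidence interval -0.16 to 0.40), and lay above all ALKKO libraries. In ALK against ALKKO it rose by 0.41 (SE 0.128, adjusted p = 0.0377 by edgeR's quasi-likelihood test), a call held by 7 of 21 alternatives. It was lost without the first or second Ctrl library (adjusted p = 0.0642 and 0.0583 by edgeR), the third KO library (0.0596), the second or the third ALK library (0.102 and 0.0678) or any 1 of the ALKKO libraries (0.110, 0.0760 and 0.127). The direction was kept in all 21 alternatives, with log2 fold changes of 0.31 to 0.48.

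In that second comparison, of tumors with the thymocytes of mice that carried the transgene and lacked Dnmt1, 2 of the 10 genes rose (Trim28 and Setdb1), 1 fell (Ezh1) and 7 did not pass the test, where 28.1% of all tested genes passed, 13.4% upwards and 14.7% downwards. The groups did not overlap in these 3 genes, as in 43.2% of all tested genes. The median log2 fold change was 0.22 for the 10 genes and 0.03 for all tested genes, and Ezh1 was the only 1 of the 10 with a value below 0. The comparisons of ALK with Ctrl and with ALKKO share the tumor libraries, so they are not separate evidence on the tumors.

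**Figure D2:**
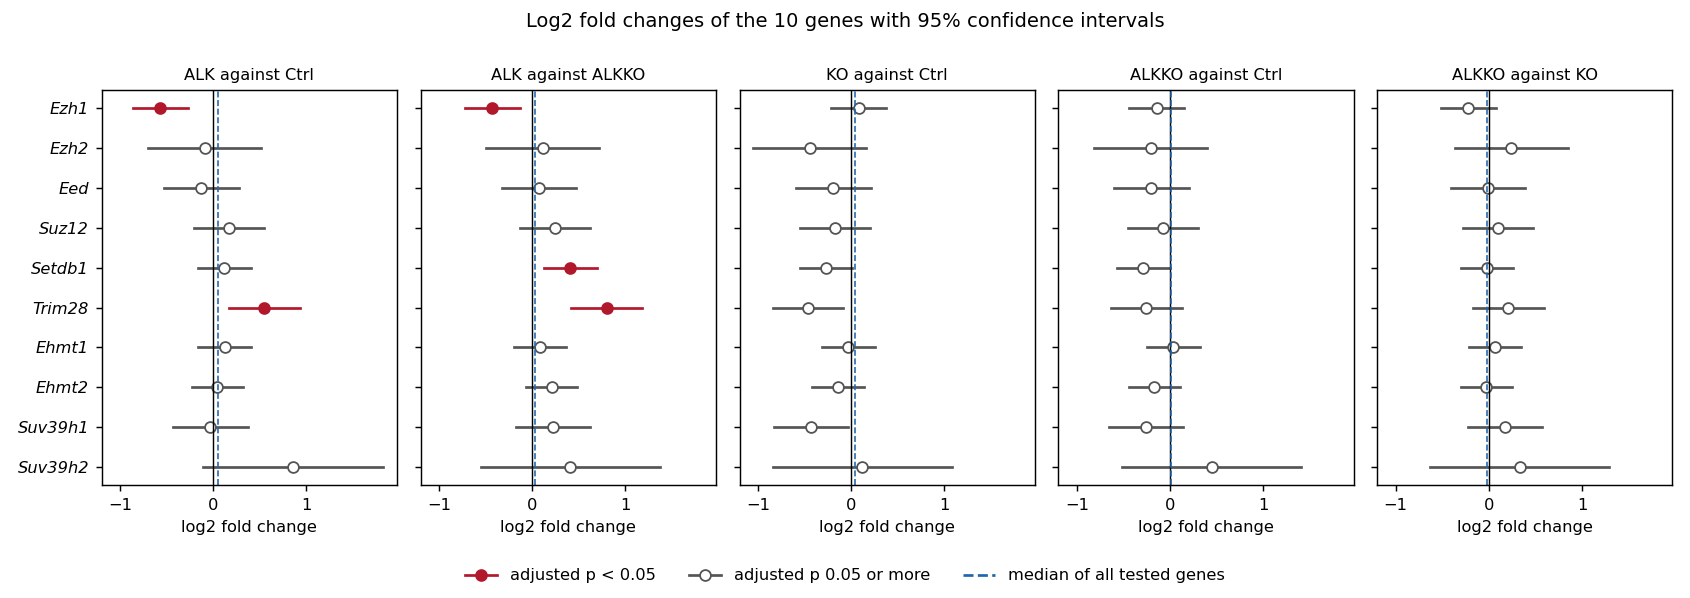
Log2 fold changes (x axis) of the 10 genes (rows) in 5 comparisons, with 95% confidence intervals from the fit over 12 libraries; filled red points had an adjusted p under 0.05 and the dashed line marks the median of all 16052 tested genes. Red points are limited to Ezh1 and Trim28 in ALK against Ctrl and to Ezh1, Setdb1 and Trim28 in ALK against ALKKO, and the widest intervals are those of Suv39h2.

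The core of PRC2 did not pass the test in the tumors. Ezh2, the methyltransferase of dividing cells, measured 294, 351 and 266 CPM across Ctrl, 261, 127 and 282 across KO, 298, 343.5 and 214 across the tumors and 255, 266 and 269.9 across ALKKO. The tumors overlapped with Ctrl, the third of them lay below it, and the lowest value of all was that of KO2. In ALK against Ctrl the log2 fold change of Ezh2 was -0.09, with an interval of -0.70 to 0.51. That interval spans both directions. Suz12, the subunit that holds the complex together, measured 274.5, 325 and 204 CPM across the tumors against 219 to 257 across Ctrl (log2 fold change 0.17, 95% confidence interval -0.20 to 0.55). Eed, the subunit that binds the trimethyl mark, measured 60.1, 104 and 75.6 CPM across the tumors against 77.4 to 96.6 across Ctrl (-0.13, interval -0.53 to 0.28). In each of these 3 genes the second tumor was the highest, and Ezh2 and Suz12 were lowest in the third tumor.

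Among the tumors the proliferation marker Mki67 was lowest in the same one, which came from the oldest of the 12 mice, labelled 31 wk. Mki67, the Ki-67 antigen of cycling cells, had 1577, 1380 and 590.1 CPM in the 3 tumors, 748 to 886 across Ctrl, 835 to 871 across ALKKO and 414 CPM in KO2 against 894 and 874 CPM in the other KO mice. The libraries with the lowest Mki67, KO2 and the third tumor, also had the lowest Ezh2 of all 12. The first and second tumor had the highest Mki67, while their Ezh2 of 298 and 343.5 CPM lay within the Ctrl range of 266 to 351. The part of proliferation in the levels of Ezh2 was not tested. Of the 21 proliferation genes, 2 rose in ALK against Ctrl and none fell, with a median log2 fold change of 0.45. Their share past the test was 9.52%, where 29.5% of all tested genes passed and 14.8% rose.

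The euchromatic pair did not pass the test in any comparison. Ehmt1 (GLP) measured 128, 122 and 119.8 CPM across Ctrl, 139, 100.5 and 123 across KO, 146, 128 and 129 across the tumors and 121, 128 and 129.8 across ALKKO. Ehmt2 (G9a) measured 272, 249.8 and 235 CPM across Ctrl, 240.2, 227 and 219 across KO, 290.4, 219 and 271 across the tumors and 219, 229.9 and 225 across ALKKO. The groups overlapped in both genes, apart from Ehmt2 in ALKKO, where all 3 values were below all Ctrl values. In ALK against Ctrl the log2 fold changes were 0.12 for Ehmt1 (95% confidence interval -0.16 to 0.40) and 0.04 for Ehmt2 (-0.23 to 0.32).

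Of the heterochromatic pair, Suv39h1 measured 148, 133 and 107 CPM across the tumors against 141, 146 and 108 across Ctrl, with a log2 fold change of -0.03 (95% confidence interval -0.43 to 0.37). Its paralog Suv39h2 had the largest coefficient of variation of the 10 genes in Ctrl, ALK and ALKKO. It measured 8.67, 11.8 and 12.4 CPM across Ctrl, 12.7, 10.8 and 12.1 across KO, 21.2, 29.4 and 9.07 across the tumors and 18.3, 18.8 and 7.73 across ALKKO. A pair of tumors and a pair of ALKKO mice were above every Ctrl and KO mouse, while the third mouse of each group was within or below the Ctrl range. The log2 fold change of 0.86 in ALK against Ctrl (SE 0.436, 95% confidence interval -0.10 to 1.83) did not pass the test (adjusted p = 0.158 by edgeR's quasi-likelihood test). Without the third tumor it was 1.19 and passed (adjusted p = 0.0346 by edgeR), the only one of 21 alternatives in which it did.

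The coefficient of variation between mice had a median over the 10 genes of 16.9% in ALK, 12.9% in KO, 11.03% in Ctrl and 4.77% in ALKKO. In KO, 7 of the 10 genes were lowest in KO2, and in Ctrl, 9 of the 10 were lowest in the third mouse. No test was made on these spreads.

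The ratio of paralogs within a library does not depend on how the libraries are scaled. EZH2 and EZH1 are alternative subunits of PRC2, and Ezh2 exceeded Ezh1 by 3.37 to 4.27 times in CPM in Ctrl, by 1.40 to 3.58 times in KO, by 3.23 to 3.89 times in ALKKO and by 5.82, 7.38 and 3.30 times in the 3 tumors. The first and second tumor were thus above all other libraries and the third was below all Ctrl libraries. The mean log2 ratio was 0.47 higher in ALK than in Ctrl (exact two-sided permutation test p = 0.400, 3 mice against 3, where the smallest possible p is 0.1). Without the third tumor the difference was 0.80 and without the second it was 0.22. The ratio of Suv39h1 to Suv39h2 was 8.70 to 16.3 in Ctrl, 7.03 to 8.92 in KO, 5.83 to 13.8 in ALKKO and 6.96, 4.53 and 11.7 in the tumors, a log2 difference of -0.75 between ALK and Ctrl (exact two-sided permutation test p = 0.200). The ratio of Ehmt2 to Ehmt1 was between 1.71 and 2.26 in all 12 libraries and differed by -0.08 on the log2 scale between ALK and Ctrl (exact p = 0.600). All 15 tests of the 3 ratios in 5 comparisons had an adjusted p of at least 0.600 by the exact permutation test. With a smallest possible p of 0.1, no ratio could have passed the threshold, so these tests cannot decide whether a ratio differed. Only Ehmt2 to Ehmt1 in ALKKO against Ctrl had no overlap, with 1.73 to 1.80 against 1.96 to 2.12. Its log2 difference was -0.20 (exact two-sided permutation test p = 0.1), and the groups overlapped in all other tests.

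**Figure D3:**
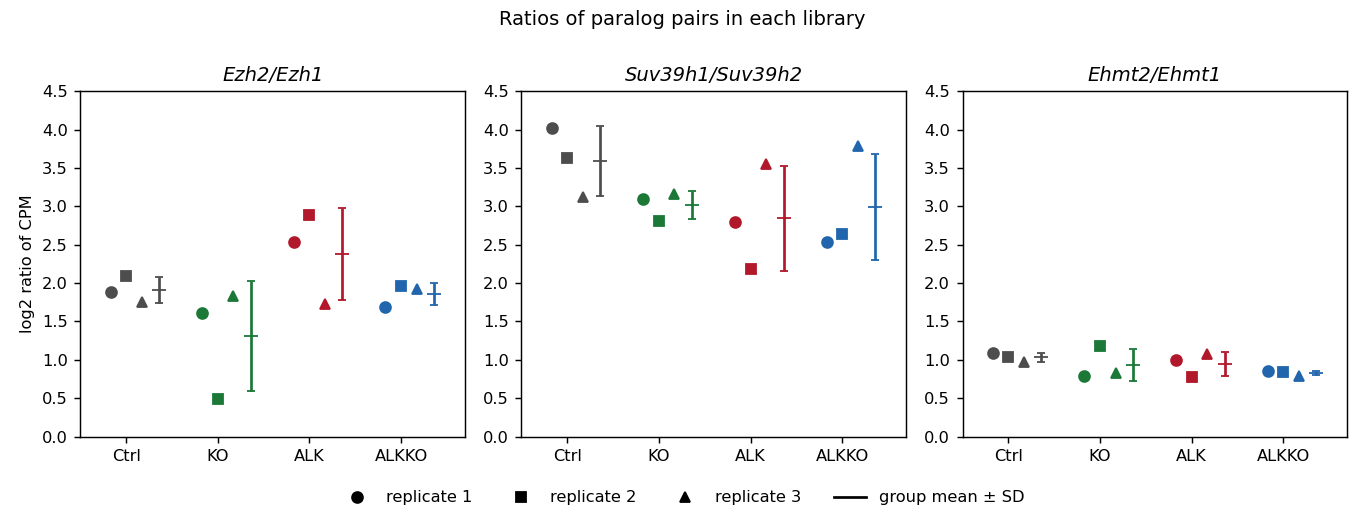
Log2 ratio of CPM (y axis, from 0) of 3 paralog pairs in each library by group (x axis); marker shapes give the replicate number and bars the mean ± SD of the log2 ratios (n = 3). Ezh2/Ezh1 was highest in the first and second ALK tumor and lowest in the second KO library, and Ehmt2/Ehmt1 was the narrowest of the 3.

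The comparison of KO with Ctrl addressed the loss of Dnmt1 without the oncogene. None of the 10 genes passed edgeR's test, where 0.0187% of all tested genes did, and 2 had an unadjusted p under 0.05, where 5.52% of all did. DESeq2's Wald test also passed none of them, where 0.305% of all tested genes passed it. In 8 of the 10 the log2 fold change was below 0, with a median of -0.18 against 0.04 over all tested genes. All 21 proliferation genes and all 10 tested T-cell markers were below 0 too, with medians of -0.40 and -0.42. Of 7 B-cell markers 0 were below 0, and of 8 tested myeloid markers 1 was. The part of cell content in these values was not tested. Of the 10 genes Trim28 was the furthest below 0 (log2 fold change -0.46, SE 0.172, adjusted p = 0.864 by edgeR). All its KO values were below all Ctrl values, where 12.4% of all tested genes did not overlap between the groups. Without KO2 the log2 fold change of Trim28 was -0.35 and that of Ezh2 went from -0.45 to -0.16, and again none of the 10 passed and none had an unadjusted p under 0.05.

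In ALKKO against Ctrl, the transgene together with the deletion, none of the 10 genes passed edgeR's test or DESeq2's. Of all tested genes 0.187% passed the first and 0.710% the second. By edgeR 1 of the 10 had an unadjusted p under 0.05, where 3.18% of all tested genes did. That gene was Setdb1, with 104 to 114 CPM in ALKKO, below all Ctrl values (log2 fold change -0.29, SE 0.128, adjusted p = 0.9998 by edgeR). Ezh1 and Ehmt2 were also below all Ctrl values, so that 3 of 10 genes did not overlap, where 17.5% of all tested genes did not. The log2 fold changes of the 10 genes ranged from -0.29 to 0.45, with 8 of 10 below 0. Of 21 proliferation genes 17 were below 0, as were 9 of 10 tested T-cell markers and 2 of 7 B-cell markers. Since KO and ALKKO were set against the same Ctrl mice, the like direction in both is not a repeat of the result.

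With the deletion in both groups, ALKKO against KO compared mice with and without the transgene. None of the 10 genes passed by edgeR, where 0.00623% of all tested genes did, none passed by DESeq2 and none had an unadjusted p under 0.05 by either tool (2.69% of all by edgeR). The log2 fold changes ranged from -0.22 for Ezh1 to 0.33 for Suv39h2. Trim28 was higher in all 3 ALKKO mice than in all KO mice (435.8 to 484 CPM against 337 to 434 CPM, log2 fold change 0.21, SE 0.171, adjusted p = 0.9998 by edgeR), where 6.34% of all tested genes did not overlap. Without KO2 the log2 fold change of Trim28 was 0.10 (unadjusted p = 0.566 by edgeR), and again none of the 10 genes passed.

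The interaction asked whether the difference made by NPM-ALK was another one without Dnmt1, and set ALKKO minus KO against ALK minus Ctrl. Tumor and thymus differ between these too. None of the 10 genes passed by edgeR, where 10.3% of all tested genes did, none passed by DESeq2, and none had an unadjusted p under 0.05 by either tool (27.7% of all by edgeR). The values lay between -0.53 for Suv39h2 and 0.35 for Ezh1, and that of Trim28 was -0.34 (SE 0.242, 95% confidence interval -0.87 to 0.20). Without KO2 the value of Ezh2 went from 0.33 to 0.08 and that of Trim28 to -0.42, the range was -0.56 to 0.42, and again none of the 10 passed or had an unadjusted p under 0.05 by edgeR.

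Other genes of the 2 systems were taken from 7 lists, of PRC2 accessory subunits, PRC1 subunits, H3K27 demethylases, the H2A deubiquitinase complex, H3K9 partners and HP1 proteins, H3K9 demethylases and genes known to be repressed by Polycomb. Of the 84 genes listed, 72 passed the filter on low counts. In ALK against Ctrl 10 of these 72 rose, 9 fell and 53 did not pass, a share of 26.4% against 29.5% of all tested genes, and the median log2 fold change was 0.07. In ALK against ALKKO 11 rose and 7 fell, a share of 25.0% against 28.1% of all tested genes, 13.4% upwards and 14.7% downwards. By edgeR none passed in KO against Ctrl, ALKKO against Ctrl or ALKKO against KO, with or without KO2. An unadjusted p under 0.05 was found in 3 of the 72 in KO against Ctrl (4.17%, where 5.52% of all tested genes had one), in 2 in ALKKO against Ctrl (2.78%, against 3.18%) and in 1 in ALKKO against KO (1.39%, against 2.69%). Without KO2 these numbers were 2, 4 and 0, where 3.07%, 4.48% and 2.47% of all tested genes had one.

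**Figure D4:**
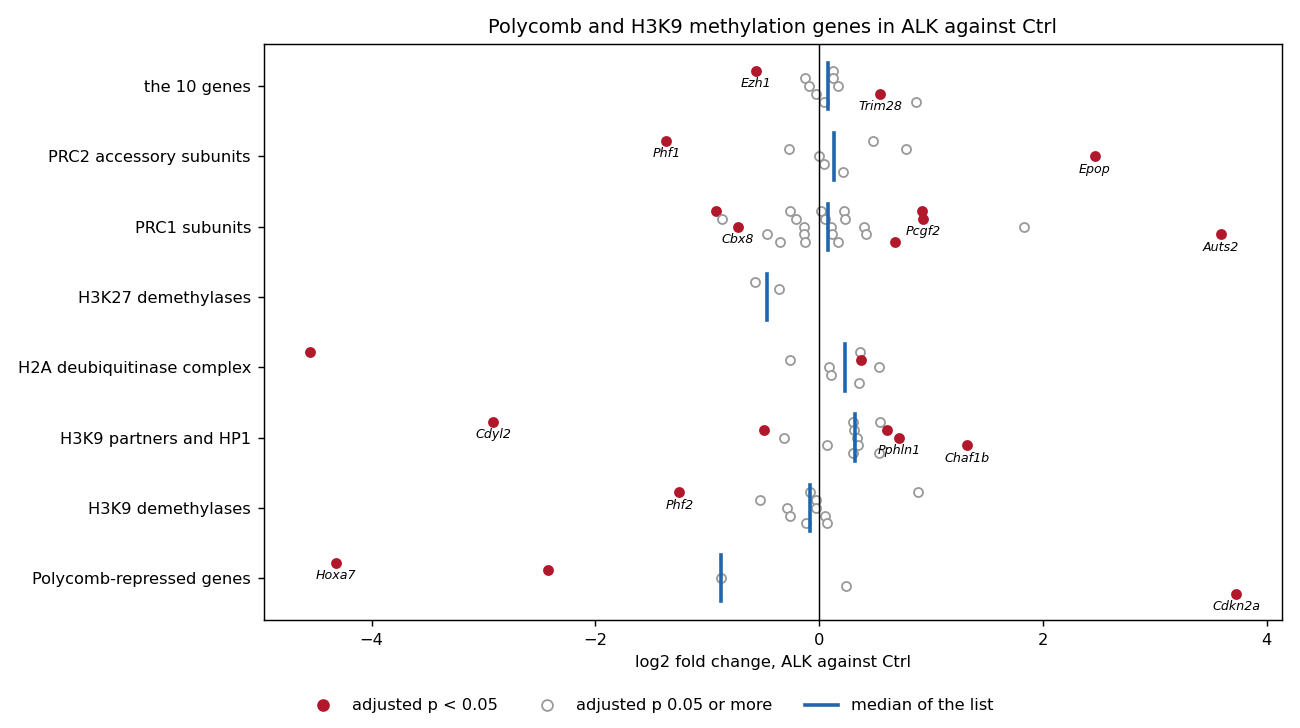
Log2 fold changes in ALK against Ctrl (x axis) of the 10 genes and of the tested genes of 7 related lists (rows); filled red points had an adjusted p under 0.05, vertical blue bars mark the median of each list, and genes that passed and are described in full are named where the change exceeded 0.5. The 10 genes lay between -0.57 and 0.86, while accessory genes such as Epop, Auts2 and Cdyl2 lay far outside this range.

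Each list is described from here on in ALK against Ctrl, where 29.5% of all tested genes passed, unless another comparison is named. Of 8 tested accessory subunits of PRC2, 1 rose, 1 fell and 6 did not pass. Epop, an elongin-binding partner of PRC2, measured 18.5, 25.6 and 17.4 CPM across the tumors against 3.40 to 4.13 across Ctrl, and all 9 thymus libraries were at 5.77 CPM or below (log2 fold change 2.46, SE 0.392, adjusted p = 0.00188 by edgeR). Phf1, a Polycomb-like protein that binds H3K36 methylation, measured 40.3, 28.1 and 46.0 CPM across the tumors against 69.5 to 125 across Ctrl (-1.37, SE 0.294, adjusted p = 0.00729 by the same test). Both kept their call without any 1 library.

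Of 24 tested subunits of PRC1, the complex that ubiquitinates histone H2A, 4 rose and 2 fell. Auts2, a part of a PRC1 variant found at active genes, had 13.3, 89.9 and 159.5 CPM in the tumors and 6.22 to 9.17 CPM in Ctrl (log2 fold change 3.59, SE 0.751, adjusted p = 0.00645 by edgeR), and its lowest tumor was above all thymus libraries. Pcgf2 (MEL18), one of the PCGF subunits that set the kind of PRC1, measured 29.7, 18.0 and 20.6 CPM across the tumors against 10.1 to 13.3 across Ctrl (0.93, SE 0.286, adjusted p = 0.0336 by the same test). That call was lost without any 1 of the Ctrl libraries (adjusted p = 0.0825, 0.0908 and 0.108), the first ALK library (0.0847) or any 1 of the ALKKO libraries (0.0533, 0.0507 and 0.0580). The other genes that rose, Bmi1 and Pcgf6, are PCGF subunits too and were named after their values were seen, with log2 fold changes of 0.68 and 0.92 (adjusted p = 0.0367 and 0.0126 by edgeR). The rise was not shared by all PCGF subunits, as Pcgf1, Pcgf3 and Pcgf5 did not pass. Pcgf1 and Pcgf3 overlapped between tumors and Ctrl, while Pcgf5 measured 23.5, 26.8 and 29.6 CPM across the tumors against 33.8 to 34.1 across Ctrl. Of the genes that fell, Cbx8, a chromobox subunit that reads H3K27 methylation, measured 16.6, 18.0 and 22.4 CPM across the tumors against 30.5 to 32.5 across Ctrl (-0.73, SE 0.177, adjusted p = 0.0126 by edgeR). It kept its call without any 1 library.

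Of 14 tested partners of the H3K9 enzymes and HP1 proteins, 3 rose and 2 fell, a share of 35.7% against 29.5% of all tested genes. Chaf1b, a subunit of the chromatin assembly factor that works with SETDB1 at replication forks, measured 125, 85.5 and 52.4 CPM across the tumors against 31.4 to 39.3 across Ctrl (log2 fold change 1.32, SE 0.309, adjusted p = 0.0108 by edgeR). Pphln1, the periphilin subunit of the HUSH complex, which also works with SETDB1, had 81.1, 111 and 112 CPM against 53.7 to 67.6 CPM (0.72, SE 0.146, adjusted p = 0.00558 by the same test). Cdyl2, a chromodomain protein, measured 5.31, 1.40 and 3.60 CPM across the tumors against 20.9 to 29.8 across Ctrl (-2.91, SE 0.425, adjusted p = 0.00130). Atf7ip, which stabilizes SETDB1, measured 155, 191 and 241 CPM across the tumors against 269 to 279.9 across Ctrl (-0.50, SE 0.156, adjusted p = 0.0363), a call lost without any 1 of the Ctrl libraries (adjusted p = 0.0713, 0.0790 and 0.0884 by edgeR) and without the first or second tumor (0.0726 and 0.0734). Wiz, a zinc-finger partner of EHMT1 and EHMT2, named after its values were seen, also rose (0.61, adjusted p = 0.0214). The partners of SETDB1 did not share a direction. In ALK against ALKKO, 6 of the 14 genes rose and 2 fell, a share of 57.1%, where 28.1% of all tested genes passed.

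Removal of the marks was covered by 2 H3K27 and 11 H3K9 demethylases. Neither H3K27 demethylase passed by edgeR or had an unadjusted p under 0.05 in ALK against Ctrl, though in both, named after their values were seen, all tumors lay below all Ctrl libraries, as tumors and Ctrl did not overlap in 46.4% of all tested genes. Kdm6a (UTX) measured 60.5, 78.4 and 78.6 CPM across the tumors against 84.5 to 104 across Ctrl (log2 fold change -0.36, adjusted p = 0.123 by edgeR), and in ALK against ALKKO its unadjusted p was 0.0388 and its adjusted p 0.101 by edgeR. Kdm6b (JMJD3) measured 125, 159 and 229 CPM across the tumors against 238 to 271 across Ctrl (-0.57, adjusted p = 0.156 by edgeR). Of the H3K9 demethylases 1 fell. That gene, Phf2, measured 267, 174 and 163 CPM across the tumors against 469 to 485 across Ctrl (log2 fold change -1.25, SE 0.282, adjusted p = 0.00924 by edgeR), and kept its call without any 1 library. KO2 had 243 CPM of Phf2 against 447 to 552 CPM in the other thymus libraries. Of 8 tested genes of the H2A deubiquitinase complex, which opposes PRC1, 1 rose and 1 fell. Asxl2, a cofactor of the deubiquitinase BAP1, had 119 to 122 CPM across the tumors against 86.5 to 104 (0.37, SE 0.120, adjusted p = 0.0393 by edgeR), a call held by 7 of 21 alternatives. It was lost without the first or second Ctrl library (adjusted p = 0.168 and 0.143 by edgeR), the third KO library (0.0637), the second or the third ALK library (0.0934 and 0.0646) or any 1 of the ALKKO libraries (0.0643, 0.0660 and 0.0688). Asxl3, named after its values were seen, was the gene that fell and was low throughout, with 0 to 0.0672 CPM against 0.482 to 1.08.

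Of 13 genes known for repression by Polycomb, the Hoxa genes and the Cdkn2a and Cdkn2b locus, 5 passed the filter on low counts, and 1 of them rose and 2 fell. Cdkn2a, which encodes the cell cycle inhibitor p16 and the p53 activator ARF, had 1.01, 13.6 and 16.8 CPM in the tumors, 0.536 to 0.917 across Ctrl and 0.383 to 1.02 across ALKKO (log2 fold change against Ctrl 3.73, SE 1.11, adjusted p = 0.0294 by edgeR). Only the second and the third tumor stood out, and KO2 had 6.89 CPM against 0.795 and 0.809 CPM in the other KO mice. The call was lost without any 1 of the Ctrl libraries (adjusted p = 0.0897, 0.101 and 0.0846) and without the second or the third tumor (0.0662 and 0.0608, all by edgeR). Hoxa7 lay at 2.96 to 4.69 CPM across Ctrl and at 0.0782 to 0.336 across the tumors, where it had 5, 1 and 1 counts (-4.32, SE 0.600, adjusted p = 0.00107 by edgeR). Hoxa2, named after its values were seen, also fell, with 0.0873 to 0.235 CPM against 0.687 to 1.24. Of the exon bases of Hoxa2 46.9% lie under another gene on the same strand, so its counts may leave reads out. Hoxa3, Hoxa4, Hoxa5 and Hoxa6 were listed at 0 in all 12 libraries. These 4 lie inside another gene on the same strand, and 99.0% of the coding genes so placed were at 0, so nothing follows for their expression.

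The genes whose pattern over the 12 libraries was most like that of the genes that passed a test were named by the root mean square difference of their log2(CPM + 1) values, centred on each gene's mean, among 16051 other tested genes. Nearest to Ezh1 were Gpr107 (0.0784) and 1600012H06Rik (0.0948), nearest to Setdb1 were Thoc7 (0.0712) and Sfpq (0.0811), and nearest to Trim28 were Rcc2 (0.0862) and Cnot10 (0.137). The likeness rests on 12 libraries in 4 groups and is a description. Rcc2, for example, had means of 598 CPM in Ctrl, 449 in KO, 812 in ALK and 496 in ALKKO, where Trim28 had 551, 399.8, 806 and 463.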

How the data were processed

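RNA of 12 mice was sequenced, and the authors deposited 1 table of raw counts per gene for each library, made with HTSeq from STAR alignments to mm10. The submitters' processing notes also name Trim Galore, FastQC, Picard 2.19.2 and DESeq2. Of 411 coding genes inside a gene on the same strand 407 were at 0, against 159 of 782 inside one on the opposite strand, so strand was used and, judging from the values, reads were counted over whole gene bodies, introns included. Rows that name no gene were left out: 2.68% to 5.19% of unique reads were ambiguous and 3.13% to 4.71% lay in no gene. Libraries held 12473857 to 18864327 reads on genes, and the floor of 3 counts reflects counting error alone. Gene IDs were matched to symbols in GENCODE M21 (50376 of 50600).

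Counts were scaled by TMM, filtered by filterByExpr (16052 genes kept) and tested by edgeR 4.0.16 (glmQLFit with robust dispersion and glmQLFTest in R 4.3.3) in a fit with a mean for each of the 4 groups and no covariate. P-values were adjusted by Benjamini-Hochberg over all tested genes, with a threshold of 0.05. Each mouse is 1 sample, and p-values measure the spread between mice. Ratios were tested by exact permutation tests (SciPy 1.17.1). The scripts were tested on simulated data. Alternatives were DESeq2 1.42.0, its size factors, no filter, a minimum of 10 counts per library, a replicate block, a term for sex or for labelled age, a fit to only the 2 groups in question, a test against an absolute log2 fold change of 1 (glmTreat), the same value as a second threshold, and leaving out each library. KO2 was the only female, so sex cannot be told apart from that mouse. The term for sex and leaving out KO2 gave nearly the same fit (log2 fold change of Trim28 in KO against Ctrl -0.353 and -0.349) and are not separate alternatives. Both are nevertheless counted in each number of alternatives given. The 10 genes and the lists were chosen with earlier results of these data known. In each list the genes named in full were the 2 with the largest rise and the 2 with the largest fall among those past the test in ALK against Ctrl whose groups did not overlap and whose mean was at least 1 CPM. The values of 1 gene of the lists that this rule names are not reported here.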

Additional observations from a re-analysis of the deposited data

Results flagged for a closer look

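In 6 of the 72 tested genes of the related lists the difference made by NPM-ALK was not the same with and without Dnmt1, by edgeR's interaction test of ALKKO minus KO against ALK minus Ctrl with Benjamini-Hochberg adjustment over all genes. That is a share of 8.33%, where 10.3% of all tested genes passed. Without KO2, the library with the high B-cell and myeloid markers, 7 passed (11.1% of all tested genes did), of which Epop, Asxl3, Cdyl2 and Hoxa7 were shared with the 6, while Cdkn2a and Hoxa2 no longer passed. Tumor and thymus differ between these groups too and cannot be told apart from the genotype.

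Epop, the elongin-binding partner of PRC2, had an interaction of -2.38 on the log2 scale (SE 0.538, adjusted p = 0.0237), with 17.4 to 25.6 CPM in ALK and 3.51 to 4.07 CPM in ALKKO. It passed in 12 of 20 alternatives and was lost without any 1 of the Ctrl libraries (adjusted p = 0.0749, 0.0588 and 0.0622 by edgeR), any 1 of the ALKKO libraries (0.0621, 0.0526 and 0.0695) or the second tumor (0.0529). Without KO2 it was -1.83 (adjusted p = 0.0221 by edgeR). Cdyl2, the chromodomain protein, had an interaction of 3.08 (SE 0.570, adjusted p = 0.0114) and passed in 20 of 20, with 2.99 without KO2. Hoxa7 had an interaction of 4.29 (SE 0.764, adjusted p = 0.00964), passed in 19 of 19, with 4.16 without KO2, and had 1.53 to 3.09 CPM in ALKKO. It had only 5, 1 and 1 counts in the 3 tumors, so its fitted value depends on the prior count.

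Cdkn2a had an interaction of -5.65 (SE 1.53, adjusted p = 0.0428) and passed in 4 of 19. Without KO2 it was -3.83 (adjusted p = 0.0793). It was also lost without the third KO library (0.0503), the second or the third tumor (0.0790 and 0.0566), any 1 of the ALKKO libraries (0.0973, 0.0821 and 0.108) or any 1 of the Ctrl libraries (0.107, 0.107 and 0.0914, all adjusted p by edgeR).

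Asxl3 and Hoxa2 were both low, with 1, 0 and 0 counts of Asxl3 and 3, 1 and 3 counts of Hoxa2 in the 3 tumors, so their fitted values depend on the prior count. Hoxa2 also has 46.9% of its exon bases under another gene on the same strand. Asxl3 had an interaction of 4.16 (SE 1.02, adjusted p = 0.0305 by edgeR), 4.24 without KO2 (adjusted p = 0.0406), and passed in 9 of 19. It was lost without any 1 of the Ctrl libraries (0.0774, 0.0535 and 0.0743), the third KO library (0.0612), the second tumor (0.0644) or any 1 of the ALKKO libraries (0.0683, 0.0602 and 0.0704, all adjusted p by edgeR). Hoxa2 had an interaction of 2.32 (SE 0.640, adjusted p = 0.0459 by edgeR) and passed in 4 of 19. It was lost on leaving out any 1 library other than the first or the third tumor, with adjusted p from 0.0648 without KO2 (interaction 2.15) to 0.111 without the third Ctrl library.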

How the results depend on the processing

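Over 22 settings none of the 10 genes passed in KO against Ctrl, ALKKO against Ctrl, ALKKO against KO or, over 21, the interaction. Of all tested genes at most 0.305%, 0.886% and 0.156% passed in these comparisons, in that order. In the interaction 2.76% to 19.8% of all did. In ALK against Ctrl, 2 genes passed in the reported analysis and 1 with no filter, a minimum of 10 counts, a term for labelled age or only the 2 groups compared. Of all tested genes 29.5% passed as reported, and 14.3%, 26.6%, 26.7% and 22.6% in those settings. With a log2 fold change above 1 required or with glmTreat the number was 0, where 20.4% and 8.25% of all tested genes passed. Without single libraries the number was 1 to 2, where 16.1% to 33.8% of all tested genes passed. In ALK against ALKKO, 3 passed, 1 with no filter or only the 2 groups compared, 0 with a log2 fold change above 1 required or glmTreat, and 1 to 3 without single libraries. Of the list genes in ALK against Ctrl 19 passed, 10 with a log2 fold change above 1 required, 6 with glmTreat and 12 to 24 without single libraries. The lowest number was that without the first Ctrl library, where the share of all tested genes was also lowest, at 16.1%. The cause of these changes was not tested. Mice of the same number are not stated to share a litter or day, and their deviations correlated by -0.106 to 0.426. With the replicate block 1 of the 10 genes passed in ALK against Ctrl and 1 in ALK against ALKKO, where 26.0% and 24.6% of all tested genes did.

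Values near 0 changed sign on the log2 scale. In ALK against Ctrl, leaving out single libraries gave -0.27 to 0.064 for Ezh2 (-0.09 as reported), -0.38 to 0.048 for Eed (-0.13), -0.013 to 0.32 for Suz12 (0.17), -0.041 to 0.13 for Ehmt2 (0.04) and -0.15 to 0.077 for Suv39h1 (-0.03). With a term for labelled age Ezh2 was at 0.033, Ehmt2 at -0.013 and Suv39h1 at 0.017, and Ehmt2 was at -0.0031 with no filter and -0.043 with a minimum of 10 counts. In ALK against ALKKO, leaving out single libraries gave -0.054 to 0.28 for Ezh2 (0.11) and -0.18 to 0.26 for Eed (0.07), and with a minimum of 10 counts Eed was at -0.021 and Ehmt1 (0.09) at -0.0081. The log2 ratio of Ehmt2 to Ehmt1 (-0.08) was -0.14 to 0.0025 without single libraries.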
